A study of Rattus norvegicus with 23 samples.

Results

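Between 24 and 36 h on a soft substrate, transcript levels of differentiating rat neural stem cells were compared in 6 libraries, 3 of soft at 36 h and 3 of soft at 24 h, out of 23 in the series. The 6 were chosen by the substrate and time in their titles. The cells were labelled as neural stem cells of adult female wild-type hippocampus, and no transgene, deletion or drug arm is named for any group. Every group carries the same treatment label, DMEM-F12 with N2 in which retinoic acid was given at 1 uM and FBS at 1%. The series also holds the same step on a stiff substrate (3 libraries at 36 h, 3 at 24 h) and the earlier times of 0 and 12 h on both. Groups hold 3 libraries each, apart from 12 h on soft, which has 2. Nothing in the labels says that the rounds numbered in the titles came from different cultures or animals, and the p-values therefore cover the spread between libraries, part or all of which may be technical.

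Hippocampal neural stem cells divide to renew themselves and can become neurons, astrocytes or oligodendrocytes. Retinoic acid enters the nucleus and binds its receptors, which act as transcription factors at their target genes, and serum factors favour astrocytes in such cultures. Substrate stiffness is known to bias this choice in adult rat hippocampal cells, with softer surfaces favouring neurons and stiffer ones glia.

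The deposited table lists genes by Ensembl rat identifier, and 0 of its 32883 identifiers matched the reference table used here, so no gene is called by name, no role is given to any, and the labelled cell type was not checked against marker genes. The genes are therefore described by level, size and direction of change, and by their course in other libraries. Counts are given as CPM, each gene's counts scaled to a common library total with TMM factors, and each library reads tags near the 3' ends of transcripts.

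Total counts were 3372308, 6358462 and 2573665 in the soft 36 h libraries (replicates 1 to 3), against 5008320, 6811157 and 4356620 in the soft 24 h libraries. Over the 12 libraries at 24 and 36 h of both substrates, the first principal component of log2 CPM held 26.1% of the variance and parted the times. Its scores were 26.98, 14.06 and 20.85 in soft 36 h libraries, against -17.11, -20.43 and -13.74 in soft 24 h libraries. The second component held 12.6% and set 1 library apart: soft 36 h replicate 3, also the shallowest of the 12, stood at 38.07, where the other 11 ran from -11.91 to 11.83. Over the 8411 genes with a mean of at least 10 CPM, it stood at 19.23 on that component and the other 11 ran from -8.01 to 9.94. In these genes the library was more than 2-fold above both other soft 36 h libraries in 7 and more than 2-fold below both in 14, compared with 2 and 10 for replicate 1 and 5 and 1 for replicate 2. The main counts on soft are given with and without this library.

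**Figure D1:**
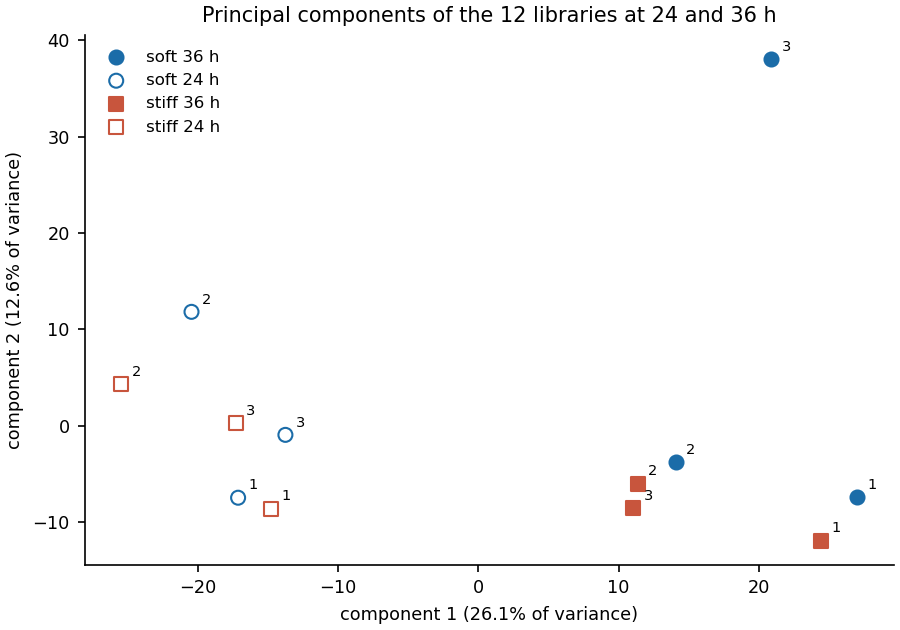
Scores of the 12 libraries at 24 and 36 h on the first 2 principal components of log2 CPM over the 11857 genes tested; circles are soft, squares stiff, filled symbols 36 h, open symbols 24 h, and digits the replicate. The first component parts 36 h from 24 h on both substrates, and soft 36 h replicate 3 stands alone at 38.07 on the second.

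On soft, 1067 genes changed from 24 to 36 h, 9.0% of the 11857 tested. Of these, 553 rose (4.66%) and 514 fell (4.33%), by edgeR's quasi-likelihood test with a Benjamini-Hochberg adjusted p under 0.05. In such bulk RNA, fewer cells of a type and less RNA per cell cannot be told apart. The changes were mostly moderate. Risers had a median change of 1.52-fold and fallers of 1.42-fold. Changes past 1.5-fold were seen in 293 risers and 204 fallers, past 2-fold in 106 risers (0.894% of the tested genes) and 51 fallers (0.430%), and past 4-fold in 12 and 6. The median log2 fold change over all tested genes was 0.0021, and 50.3% were above 0.

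In 1025 of the 1067 genes the 36 h and 24 h libraries did not overlap in CPM, a separation seen in 24.3% of all tested genes. Without soft 36 h replicate 3 the test called 820 genes, 429 higher and 391 lower, and 730 of them were among the 1067. Without soft 36 h replicate 1 it called 667 (370 higher, 297 lower), the fewest when any 1 of the 6 libraries was left out. The 51 falls past 2-fold became 30 without that library and 89 without soft 36 h replicate 2. Without soft 36 h replicate 3, changes past 1.5-fold were seen in 252 risers and 186 fallers, past 2-fold in 105 and 35, and past 4-fold in 16 and 5. Upper-quartile factors gave 459 risers and 682 fallers, a lower share of risers (40.2%) than TMM's 51.8%, with a shift of the median of all tested genes of -0.038 on the log2 scale. Risers were also fewer with RLE factors (527 and 534), DESeq2 (555 and 578) and a filter of 5 CPM in 3 libraries (507 and 596). The same held after thinning to the smallest total and without soft 36 h replicate 2 or soft 24 h replicate 1. The other settings gave more risers than fallers.

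Over all 23 libraries the fallers had a median level of 104 CPM, the risers of 48.7 CPM and all tested genes of 26.8 CPM. The fallers' median was 60.2 CPM at 36 h against 85.4 CPM at 24 h, while the risers had medians of 76.2 CPM at 36 h and 49.95 CPM at 24 h. All tested genes had medians of 26.2 CPM at 36 h and 25.8 CPM at 24 h. With the tested genes in 5 equal bands by mean level over all 23 libraries, calls became more frequent with level, at 2.07%, 5.44%, 8.14%, 11% and 18.4% from the lowest band to the highest. The median standard error of the log2 fold change fell along the same bands, at 0.524, 0.249, 0.164, 0.123 and 0.0955, so small changes in the low bands could not pass the test. Risers outnumbered fallers in the lower 4 bands (32 and 17, 90 and 39, 124 and 69, 142 and 118). In the highest band, above 91.5 CPM, 165 rose and 271 fell. The mean used for the bands includes 0 and 12 h, which bears on this split. On soft the fallers together held 19.5% and 20.4% of counts at those times, against 12.0% at 36 h. The risers together held 5.82% and 5.23%, against 10.8% at 36 h. The bands were counted with TMM factors only. Without soft 36 h replicate 3 the bands held 20 risers and 9 fallers, 62 and 28, 95 and 47, 114 and 91, and, in the highest, 138 and 216. Changes past 2-fold were mostly in genes of low mean level, with medians over all 23 libraries of 11.0 CPM for risers and 8.31 CPM for fallers. The 106 risers past 2-fold had a median of 23.8 CPM at 36 h, near that of all tested genes, against 9.90 CPM at 24 h. The 51 such fallers had 3.32 CPM against 8.65 CPM. The test bears on this link: in the lowest band 31 of 32 risers and 17 of 17 fallers were past 2-fold.

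**Figure D2:**
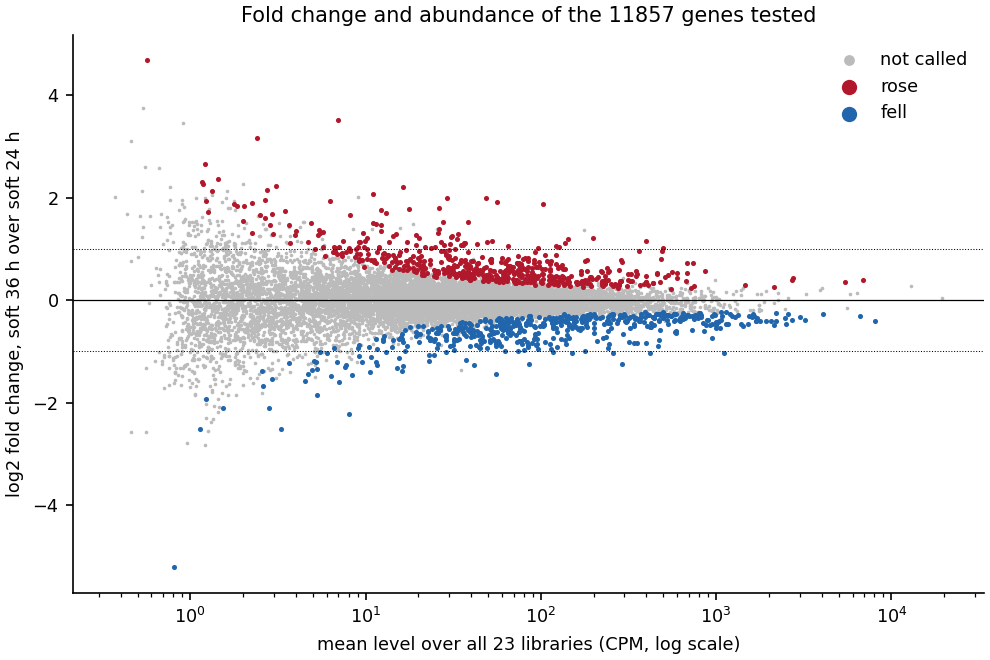
Log2 fold change of soft 36 h over soft 24 h (vertical axis) against mean CPM over all 23 libraries (horizontal log axis) for the 11857 genes tested, with red for the 553 that rose, blue for the 514 that fell and grey for the rest; dotted lines mark 2-fold. With TMM factors, among genes above 91.5 CPM in this mean over all times falls (271) outnumber rises (165), while below that level rises outnumber falls.

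Among the called genes, appearance or loss of a transcript was rare, though genes near 0 counts could seldom pass the filter and the test. Of the risers, 473 were already at 10 CPM or more at 24 h and 10 were below 1 CPM there. Of the fallers, 451 were still at 10 CPM or more at 36 h and 7 were below 1 CPM. No riser lacked counts in all 3 of the 24 h libraries (0 of 553), and 1 faller had 0 counts in all 3 of the 36 h libraries. Of the genes called without soft 36 h replicate 3, 376 of 429 risers were at 10 CPM or more at 24 h and 5 below 1 CPM, and 349 of 391 fallers were at 10 CPM or more at 36 h and 6 below 1 CPM.

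The 2 genes that rose and the 2 that fell with the smallest p-values are described library by library, as single genes that do not stand for the rest. ENSRNOG00000004757 stood at 367, 386 and 377 CPM in the soft 36 h libraries, against 147, 165 and 176 CPM in the soft 24 h libraries. The groups did not overlap, and the rise was 2.32-fold, with a log2 fold change of 1.21 and an SE of 0.0901 (edgeR, Benjamini-Hochberg adjusted p = 1.26e-10). At the earlier times on soft it was at 142 ± 10.05 CPM at 0 h (SD, n = 3) and 145 ± 13.9 CPM at 12 h (SD, n = 2). This gene thus held a level near its starting one until 24 h and was higher at 36 h.

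ENSRNOG00000011130 stood at 155, 150 and 139 CPM in the soft 36 h libraries, against 26.9, 43.3 and 40.8 CPM in the soft 24 h libraries. All 3 later libraries lay far above all 3 earlier ones, and the rise was 3.98-fold (log2 fold change 1.99, SE 0.162, edgeR adjusted p = 6.68e-10). On soft it was almost silent at first, at 0.439 ± 0.178 CPM at 0 h (SD, n = 3) and 2.37 and 6.75 CPM in the 2 libraries at 12 h, so its mean was higher at every later time sampled.

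Both of these fallers had their highest mean on soft at 12 h. ENSRNOG00000017259 stood at 64.9, 98.8 and 82.7 CPM in the soft 36 h libraries, against 155, 200 and 154 CPM in the soft 24 h libraries. The groups did not overlap, with replicate 2 the highest of each, and the level fell 2.05-fold (log2 fold change -1.03, SE 0.114, edgeR adjusted p = 1.93e-07). Its earlier levels on soft were 334 ± 4.58 CPM at 0 h (SD, n = 3) and 481 ± 4.75 CPM at 12 h (SD, n = 2).

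ENSRNOG00000050819, the most abundant of the 4, stood at 305, 417 and 308 CPM in the soft 36 h libraries, against 756, 693 and 656 CPM in the soft 24 h libraries. Its ranges were also apart, with a 2.03-fold fall (log2 fold change -1.02, SE 0.116, edgeR adjusted p = 2.60e-07). It had been at 1410 ± 107 CPM at 0 h (SD, n = 3) and 2420 ± 128 CPM at 12 h (SD, n = 2). Without soft 36 h replicate 3 the log2 fold changes of the 4 genes, in the order given, were 1.20, 2.02, -1.04 and -0.96.

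**Figure D3:**
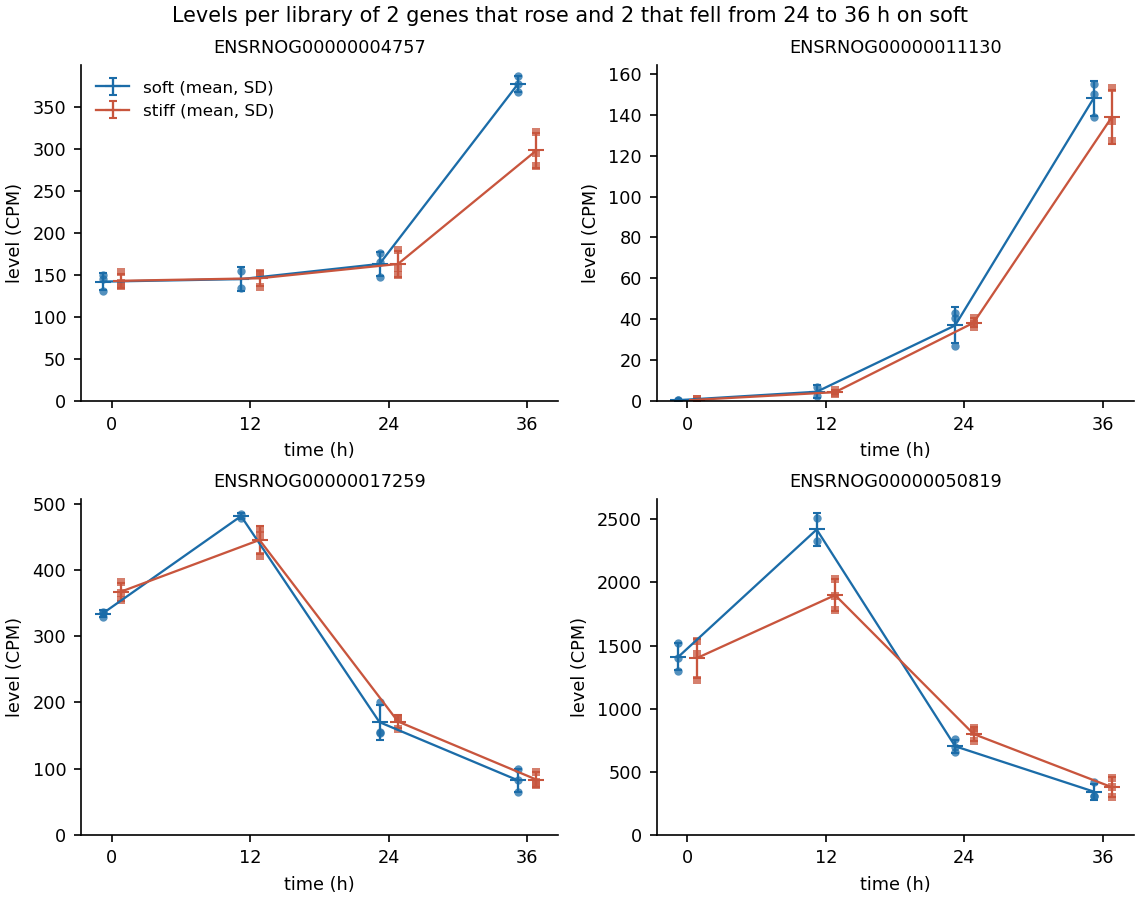
CPM per library (points) with the mean and SD of each group (bars, lines join means) at 0, 12, 24 and 36 h on soft (blue circles, 3 libraries per time, 2 at 12 h) and stiff (red squares, 3 per time), on linear axes from 0, for the 2 genes with the smallest p that rose on soft from 24 to 36 h and the 2 that fell. ENSRNOG00000004757 is near 142 to 163 CPM on soft until 24 h and at 377 CPM at 36 h, and both falling genes have their highest mean at 12 h.

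The largest changes were read next, among called genes with non-overlapping libraries and at least 10 CPM in the higher group (500 risers, 468 fallers). The 12 largest rises ran from 3.38-fold to 11.5-fold. Across these 12 genes the median level was 52.1, 45.5 and 48.2 CPM in the soft 36 h libraries, against 8.78, 13.6 and 15.9 CPM in the soft 24 h libraries, a description only since the genes were chosen on these values. The 12 largest falls were smaller, from 2.17-fold to 2.79-fold, with medians of 6.49, 7.63 and 5.85 CPM in the soft 36 h libraries, against 19.6, 18 and 16.2 CPM in the soft 24 h libraries. In the stiff libraries, which had no part in the choice, the 12 risers had medians of 39.2, 37.4 and 27.6 CPM at 36 h, against 8.80, 11.3 and 10.9 CPM at 24 h. The 12 fallers had 8.77, 9.34 and 10.5 CPM at 36 h, against 17.1, 22.1 and 18 CPM at 24 h. All 12 risers and all 12 fallers had the same sign on stiff as on soft, and 11 of each were also called there. Of all tested genes, 50.5% were above 0 on stiff, 4.60% were called as risen and 5.29% as fallen. Of all genes called on soft, 53.3% of risers and 65.6% of fallers were called the same way on stiff.

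The same step was measured on stiff in separate libraries. There 1173 genes were called (9.89% of those tested), 546 higher (4.60%) and 627 lower (5.29%) at 36 h. The genes called on soft were read in those libraries. The 553 soft risers had a median log2 fold change of 0.44 on stiff and 536 were above 0, with 295 called as risen and 0 as fallen. The 514 soft fallers had a median of -0.42 on stiff and 13 were above 0, with 337 called as fallen and 0 as risen. All tested genes had a median of 0.0041 on stiff, with 50.5% above 0. The reverse reading, genes chosen on stiff and measured on soft, gives sizes for the soft step that the choice did not enlarge. The 546 stiff risers had a median of 0.44 on soft with 533 above 0, and the 627 stiff fallers a median of -0.38 with 16 above 0. All tested genes had a median of 0.0021 on soft.

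The genes called on both substrates numbered 632, which is 59.2% of the soft list and 53.9% of the stiff list, and 0 were called in opposite directions. With the soft genes called without soft 36 h replicate 3, 543 were shared, 66.2% of that soft list and 46.3% of the stiff list, and again 0 were opposite. The fallers of soft were shared in 65.6% of cases and its risers in 53.3%. Whether these shares differ was not tested. Across genes, which share the scaling and the fit but no library, the log2 fold changes on soft and stiff had a Pearson's r of 0.506 over the 11857 tested genes, of 0.743 over the 8411 with at least 10 CPM and of 0.865 over the 2180 with at least 100 CPM. The stiff list was sensitive to single libraries, with 540 genes without stiff 36 h replicate 1 and 600 without stiff 24 h replicate 2.

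**Figure D4:**
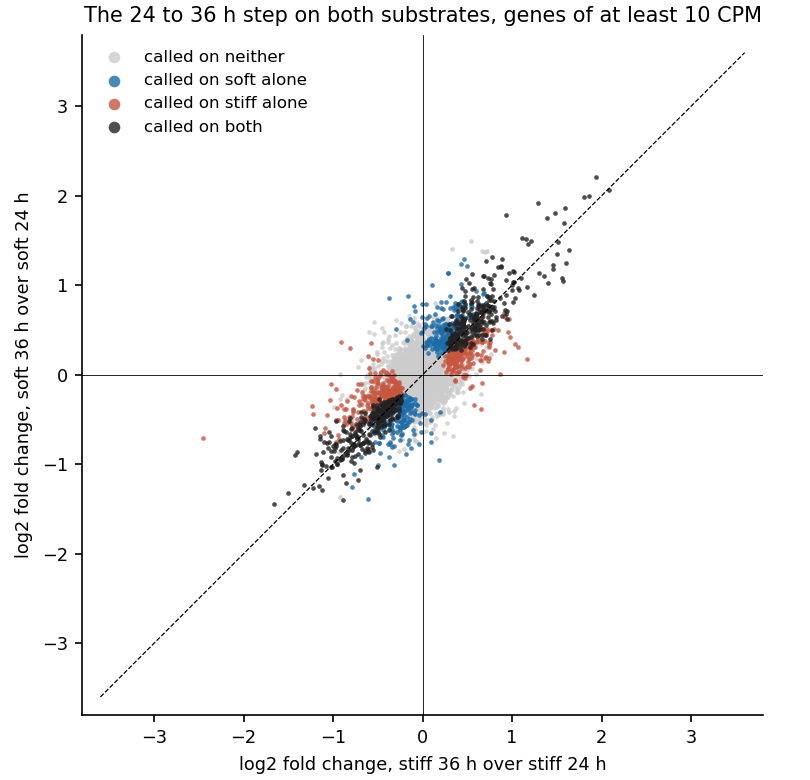
Log2 fold change of 36 h over 24 h on soft (vertical axis) against that on stiff (horizontal axis) for the 8411 genes with a mean of at least 10 CPM, coloured by the substrate on which the gene was called; the dashed line marks equal change. Across all the genes shown, called or not, Pearson's r was 0.743, and no gene was called in opposite directions.

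The weight of both sets of genes in the RNA was followed by the share of each soft library's counts, taken over the tested genes. The 546 genes that rose on stiff held 12.5%, 11.8% and 11.8% of counts in the soft 36 h libraries, against 9.14%, 8.84% and 9.39% in the soft 24 h libraries. The 627 genes that fell on stiff held 11%, 12.0% and 11.7% in the soft 36 h libraries, against 14.7%, 15.2% and 14.5% in the soft 24 h libraries. Neither pair of groups overlapped. Over the whole course on soft, the first set held 5.72 ± 0.0606%, 5.91 ± 0.193%, 9.12 ± 0.275% and 12.0 ± 0.392% of counts at 0, 12, 24 and 36 h (SD, n = 3, 2 at 12 h). The second held 19.9 ± 0.275%, 19.4 ± 0.0905%, 14.8 ± 0.343% and 11.6 ± 0.539% at the same times. Both sets were thus near their starting share at 12 h and away from it at 24 h and 36 h.

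**Figure D5:**
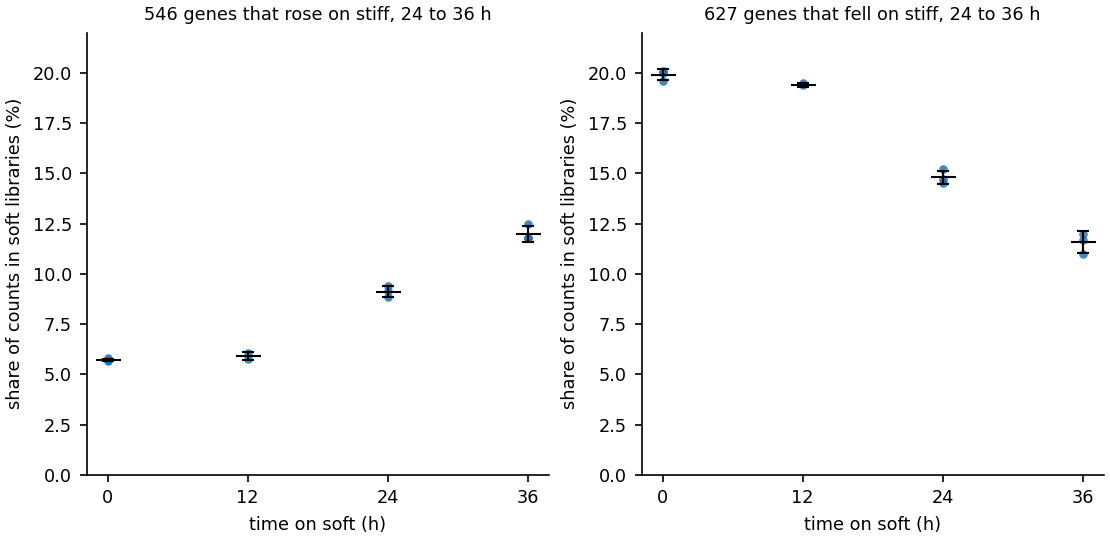
Share of counts (percent, over tested genes) in each soft library (blue points) with the mean and SD (black bars) at 0, 12, 24 and 36 h, for the genes that rose (left) or fell (right) from 24 to 36 h in the stiff libraries. The share of the 546 risers goes through 5.72%, 5.91%, 9.12% and 12.0%, and that of the 627 fallers through 19.9%, 19.4%, 14.8% and 11.6%.

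The difference between the soft and the stiff step was tested directly and called 0 genes, 0% of those tested. edgeR's quasi-likelihood test gave an unadjusted p under 0.05 for 439 genes, with a smallest Benjamini-Hochberg adjusted p of 0.19. With no filter on low counts the same test called 14 genes, 11 with a larger and 3 with a smaller log2 fold change on soft. DESeq2 called 1, the fit with the round as a block 2, the fit without soft 24 h replicate 2 called 2 and that without soft 36 h replicate 3 called 1. The other alternatives and left-out libraries gave 0. This does not show that the steps were equal. For genes of at least 10 CPM the 95% interval of the difference reached a median of 0.387 to each side on the log2 scale, or 1.31-fold. That interval is not adjusted for the number of genes tested, whereas a call needed an adjusted p under 0.05. Differences of that size or less would often pass unseen, and larger ones could also go uncalled. Of the 1067 genes called on soft, 105 had an unadjusted p under 0.05 for the difference (9.84%, compared with 3.70% of all tested genes), a share that the choice of genes on the soft step enlarges.

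Of the 4 genes described, ENSRNOG00000004757 had the widest gap. It rose 2.32-fold on soft and 1.83-fold on stiff, with 367, 386 and 377 CPM in soft 36 h libraries and 295, 320 and 279 CPM in stiff 36 h libraries. The log2 difference between its steps was 0.34 (95% interval 0.0812 to 0.595) and was not called (edgeR adjusted p = 0.999). For ENSRNOG00000011130 the log2 difference was 0.13 (95% interval -0.323 to 0.591). For ENSRNOG00000017259 it was -0.007 (95% interval -0.334 to 0.32) and for ENSRNOG00000050819 0.058 (95% interval -0.273 to 0.389). The intervals of these last 3 genes cover 0. None of the 4 intervals is adjusted for the number of genes tested. Nor do they allow for the choice of these genes by their p on soft, which can enlarge a difference.

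Earlier changes of the same genes were taken from libraries that the soft step does not use. In the first 24 h on stiff, the 553 soft risers had a median log2 fold change of 0.44, with 310 called as risen (56.1%, background 25.9%) and 98 as fallen (17.7%, background 25.4%). The 514 soft fallers had a median of -0.41, with 313 called as fallen (60.9%) and 72 as risen (14%). Most of the called genes thus moved in the direction they had taken, on the other substrate, by 24 h, and a minority in the opposite one. Read the other way, of 3076 genes that rose on stiff by 24 h 10.1% rose and 2.34% fell on soft from 24 to 36 h, and of 3015 that fell 3.25% rose and 10.4% fell, where 4.66% and 4.33% of all tested genes did. Of the genes called without soft 36 h replicate 3, 257 of 429 risers had risen on stiff by 24 h and 71 had fallen, and 258 of 391 fallers had fallen and 43 had risen.

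The first 12 h gave another picture. From 0 to 12 h on soft, the 553 risers had a median log2 fold change of -0.078, with 100 called as risen (18.1%, background 15.2%) and 154 as fallen (27.8%, background 13.9%). The 514 fallers had a median of 0.12, with 138 called as risen (26.8%) and 72 as fallen (14%). Of the 1651 genes that fell on soft by 12 h, 9.33% rose and 4.36% fell from 24 to 36 h. Of the 1804 that rose by 12 h, 5.54% rose and 7.65% fell. Among the early changes past 2-fold, 10.5% of 493 fallers rose and 1.62% fell, while 7.84% of 510 risers rose and 7.45% fell. The soft 12 h group has 2 libraries. The early calls numbered 3455 in all and 2150 without soft 12 h replicate 3, and the early fallers of that smaller list rose in 11.8% of cases and fell in 3.59%, and its early risers rose in 6.13% and fell in 9.72%. Without soft 12 h replicate 1 these shares were 9.82% and 4.15% for early fallers and 6.91% and 7.22% for early risers. On stiff, where 21.5% of the tested genes were called by 12 h and the group has 3 libraries, the soft risers included 89 called as risen by 12 h (16.1%, background 11.8%) and 123 as fallen (22.2%, background 9.75%), and the soft fallers 97 as risen (18.9%) and 29 as fallen (5.64%). On both substrates the soft fallers thus held more genes called as risen than as fallen by 12 h (138 and 72 on soft, 97 and 29 on stiff), and the soft risers more called as fallen than as risen (154 and 100, 123 and 89). Without soft 36 h replicate 3 these pairs were 95 and 72 on soft and 67 and 25 on stiff for the fallers, and 113 and 90 on soft and 96 and 79 on stiff for the risers. Also without soft 36 h replicate 3, of the 1804 genes that rose on soft by 12 h, 90 rose (4.99%) from 24 to 36 h. In that fit 95 of them fell (5.27%). With all libraries these numbers were 100 and 138. No test of these shares was made.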

How the data were processed

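The table deposited by the authors holds raw whole-number counts for each gene in each library. RNA came from pelleted cells and the library kit was QuantSeq FWD, a 3' tag method, per the labels' protocols. The tools listed in the submitters' processing notes are HTSeq, HISAT2 2.1.0 and FastQC, and the build is rn6. Which annotation and strand setting were used, and how duplicates were handled, is not given in the sources used here, so overlapping genes or near-identical copies may share reads.

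Counts of all 23 libraries entered 1 fit of 8 group means in edgeR 4.0.16 (R 4.3.3), with TMM factors, filterByExpr (minimum count 10, minimum total 15; 11857 genes kept) and the quasi-likelihood F test. Benjamini-Hochberg adjustment ran over all genes kept, with calls under 0.05. Contrasts were 36 h minus 24 h on soft, the same on stiff, their difference, and 12 h minus 0 h on soft. The first 12 h and 24 h on stiff were added after the data were seen. Standard errors are those implied by the F statistic. The gene groups and contrasts were chosen with earlier results of these data known. Gene lists and the rule for named genes need symbols and were not used, beyond the 2 rising and 2 falling identifiers with the smallest p that the rule allows without them. The 12 largest changes each way were described after their values were seen.

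Replicate pairs within the 4 groups at 24 and 36 h differed by more than sampling noise (chi-square per degree of freedom 3.10 to 9.11 for genes of 20 counts or more), and none were merged. Alternatives were RLE, upper-quartile and unscaled totals, 2 filters, DESeq2 1.42.0, the round as a block, the compared groups alone, each library left out, and, added after the data were seen, thinning to the smallest total and the sizes, bands and overlaps of the soft genes without soft 36 h replicate 3. Totals of 2462360 to 6811157 counts limit precision for scarce genes. Figures used matplotlib 3.10.9.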

Additional observations from a re-analysis of the deposited data

How the results depend on the processing

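The direction and the call of each of the 4 genes held under all 15 alternatives. They were chosen by the smallest p in these same libraries, so this says little about the other genes. Of the 1067 genes, 58.8% to 78.1% were still called when 1 soft library of 24 or 36 h was left out. The counts of rises on soft, in all and past 2-fold, stayed within 1.5 times under all 15. Left-out libraries gave 667 to 934 calls on soft (rises 370 to 492, falls 297 to 455), 79 to 130 rises and 30 to 89 falls past 2-fold, 540 to 1020 calls on stiff (rises 287 to 473, falls 253 to 547), 2150 to 3303 in the first 12 h on soft (rises 1147 to 1500, falls 1003 to 1820), and 0 to 2 for the difference between steps (0 to 2 larger, 0 to 1 smaller on soft). They gave medians of -0.43 to -0.34 on soft for the genes that fell on stiff. A fit of the compared groups alone called 340 falls on soft. For the difference between steps, no filter on low counts gave 14 genes (11 and 3), DESeq2 1 (1 and 0) and the round as a block 2 (1 and 1); the cause was not tested. The deviations of same-numbered soft libraries from their group means had r of 0.113, -0.0109 and -0.0397 across genes. Soft pairs with different numbers ran from -0.0994 to 0.0978. On stiff, same-numbered pairs had r of 0.0762, 0.0692 and -0.0137, and pairs with different numbers ran from -0.11 to 0.0515. These few correlations cannot settle whether libraries of a round are paired, and the main fit holds no block for the round. With the round as a block 1442 genes were called on soft, among them all 1067 called without it. On stiff that fit called 1566 genes, against 1173 without the block. Thinning every library to the smallest total left 823 of the 1067 called. Gene lists by symbol were not run. Depth limits what can be seen in scarce genes: in the lowest band of level 2.07% of genes were called.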

Other observations

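The spread of counts over genes was also compared between the soft 36 h and soft 24 h libraries, with exact permutation tests of 3 against 3 libraries (2-sided, smallest possible p = 0.1, 5 measures of composition, so none could pass 0.05). At an equal depth of 2573665 counts, 13301, 13426 and 13287 genes would be detected in the soft 36 h libraries and 13365, 13285 and 13418 in the soft 24 h libraries (exact p = 1.0). The 10 most abundant genes of each library held 8.77%, 8.35% and 8.29% of its counts in the soft 36 h libraries, against 8.12%, 7.75% and 8.03% in the soft 24 h libraries, which do not overlap (exact p = 0.1). The most abundant gene alone held 2.28%, 1.71% and 1.79% in soft 36 h libraries, against 2.34%, 1.51% and 1.70% in soft 24 h libraries. For the 100 most abundant the shares were 23.1%, 22.7% and 22.5% in soft 36 h libraries, against 23.2%, 22.4% and 23.1% in soft 24 h libraries. Taken from the most abundant down, 672, 692 and 699 genes made up 0.5 of the counts in the soft 36 h libraries, against 641, 684 and 665 genes in the soft 24 h libraries (exact p = 0.2).

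Counted without any test, 31 genes had 0 counts in all 3 soft 24 h libraries and at least 1 in all 3 soft 36 h libraries, with at most 6 counts in a library. The reverse was seen in 38 genes, with at most 10 counts in a library.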
